A study of Mus musculus with 6 samples.

Results

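The 10 genes described here encode chaperones and protein disulfide isomerases of the endoplasmic reticulum (ER): Hspa5, Hsp90b1, Pdia3, Pdia4, Pdia6, Calr, Canx, Dnajb9, Dnajb11 and Hyou1. They were taken by gene name from a table of 53715 genes. All 10 were found and all 10 passed the filter on low values (mean FPKM of at least 1 across all 6 libraries), which 12257 genes of the table passed. FPKM counts fragments per kilobase and scales them by a depth factor per library. Levels of different genes can thus be set side by side, as far as the gene lengths used are right.

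The libraries came from an immortalized mouse podocyte line, a cultured relative of the epithelial cells that cover the capillaries of the kidney's filter. One group of 3 libraries was transfected with an siRNA against TFEB and carries the genotype label TFEB knockdown, and the other group of 3 received a scrambled siRNA and carries the label WT. All cells were of the same line; the growth protocol names 33 °C with interferon gamma for proliferation and 37 °C with type I collagen for 10 to 14 days for differentiation. TFEB is a transcription factor known for activating lysosome and autophagy genes. The labels state neither the siRNA sequences and doses nor the time after transfection. They also do not say whether each library of a group had a culture of its own, so every p-value reflects the spread between these libraries, which may be technical.

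Secreted and membrane proteins enter the ER unfolded. BiP, the product of Hspa5, binds them and releases them in cycles driven by ATP, DnaJ-type cochaperones such as those from Dnajb9 and Dnajb11 start that cycle, and a large relative of Hsp70, from Hyou1, resets it by exchanging the nucleotide. Glycoproteins are held by the lectins calnexin (Canx) and calreticulin (Calr) together with Pdia3, and the disulfide isomerases Pdia4 and Pdia6 form and reshuffle disulfide bonds. When unfolded proteins build up, the sensors ATF6, IRE1 and PERK start the unfolded protein response, which raises many of these genes through promoter sites such as the ER stress response element (ERSE). Podocytes make large amounts of membrane and matrix protein.

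Promoters are shown because the ERSE was first described in this class of gene and because TFEB reads a site of its own. The RefSeq promoter table (build GRCm38.p6, 250 bases before to 50 after each start) held 9 of the 10 genes, all but Hyou1. The ERSE was searched on both strands as CCAAT, 9 bases of any kind, then CCACG. The starts are those of RefSeq and differ from the gene starts in the file's coordinates: the RefSeq start lies 120 bases inside the file's gene for Hspa5, 258 for Dnajb9, 127 for Pdia3, 65 for Hsp90b1, 44 for Pdia6 and 3 for Calr, and outside it for Pdia4. Part of these windows, the matches of Hspa5 and Dnajb9 among them, therefore lies within the gene as the file bounds it. The ERSE stood in 5 of these 9 promoters, against 39 of 32851 promoters in the table (0.119%). In the windows below, written on the strand of each gene, capitals mark the fixed letters of each match, and an ERSE on the opposite strand reads CGTGG, 9 bases, ATTGG.
Hspa5, chr2:34772005-34772063, plus strand: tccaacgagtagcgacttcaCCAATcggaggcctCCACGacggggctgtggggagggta
Pdia6, chr12:17266471-17266529, plus strand: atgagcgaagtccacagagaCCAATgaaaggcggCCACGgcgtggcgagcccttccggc
Canx, chr11:50325780-50325838, minus strand: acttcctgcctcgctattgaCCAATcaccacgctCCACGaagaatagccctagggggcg
Hsp90b1, chr10:86705513-86705676, minus strand: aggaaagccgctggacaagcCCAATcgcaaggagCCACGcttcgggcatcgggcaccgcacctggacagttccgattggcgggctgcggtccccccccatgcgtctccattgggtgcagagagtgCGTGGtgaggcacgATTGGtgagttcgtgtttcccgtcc
Calr, chr8:84847055-84847176, minus strand: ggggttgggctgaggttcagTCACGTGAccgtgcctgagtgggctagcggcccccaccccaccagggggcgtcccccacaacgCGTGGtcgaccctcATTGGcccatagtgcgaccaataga
Hsp90b1 held 2 matches, 1 on each strand, and the other 4 held 1 each. The match of Hspa5 began 65 bases before the RefSeq start, that of Pdia6 98, that of Canx 145 and that of Calr 162, while those of Hsp90b1 began 212 and 107 bases before it.

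Other sites were rarer among these genes. ERSE-II (ATTGG, 1 base of any kind, CCACG, both strands) stood in 12 of all promoters (0.0365%), 1 of them that of Dnajb11. The match of Dnajb11 began at base 8, with the start itself counted as base 1. The 8-base core of TFEB sites, TCACGTGA, which reads the same on both strands, stood in 320 promoters (0.974%), and among these genes in Calr alone, 225 bases before its start, where it holds the shorter core CACGTG. That shorter core stood in 2349 promoters (7.15%), among these genes in Calr and Dnajb9. The element read by XBP1, TGACGTGG on either strand, stood in 222 promoters (0.676%) and in 0 of these 9. These matches describe letters in the windows and do not show binding.
Dnajb11, chr16:22857832-22857882, plus strand, ERSE-II in capitals: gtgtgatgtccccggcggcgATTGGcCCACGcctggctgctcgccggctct
Dnajb9, chr12:44210150-44210195, minus strand, CACGTG in capitals: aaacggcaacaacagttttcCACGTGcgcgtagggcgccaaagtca

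**Figure D1:**
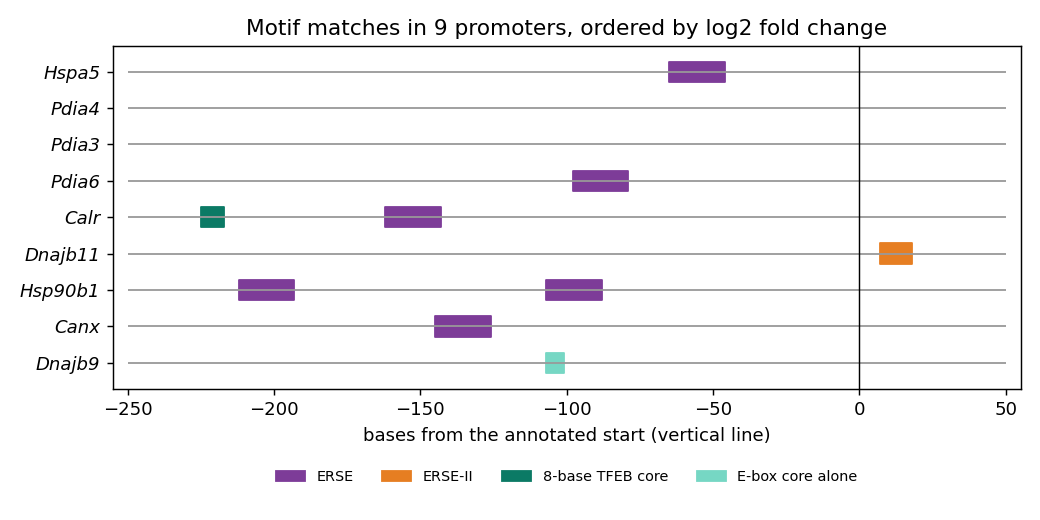
Matches of each motif in the 9 promoters, placed by distance in bases from the annotated start, with genes ordered from the highest log2 fold change (Hspa5) to the lowest (Dnajb9). ERSE matches lie in 5 promoters spread along that order, and Pdia4 and Pdia3 hold no match of the kinds drawn.

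The libraries held 18062898 to 20010130 reads in the TFEB siRNA group and 20143910 to 20610888 in the scrambled siRNA group, as derived from the FPKM values. Tfeb itself had 0.639, 0.714 and 0.822 FPKM in the TFEB siRNA libraries, against 1.80, 2.05 and 2.27 FPKM in the scrambled siRNA libraries (limma log2 fold change -1.05, SE 0.13, adjusted p = 0.00148). Mitf, of the same family, was also lower, at 1.22 ± 0.155 FPKM in TFEB siRNA cells and 2.29 ± 0.327 FPKM in scrambled siRNA cells. Of the 3 tested genes of this family, the remaining 1 did not pass (log2 fold change 0.07). The podocyte markers Nphs1 and Wt1 lay below the filter (each at most 0.504 FPKM on average in either group), so 2 of the 6 markers of the labelled cell type described here were near absent, while Synpo, Podxl, Cd2ap and Actn4 were present. Summed over these 6, the markers stood at 255 to 259 FPKM in the TFEB siRNA libraries and at 272 to 291 FPKM in the scrambled siRNA libraries. Most of that sum is Actn4; Podxl was higher (log2 fold change 0.82) and Synpo lower (-0.64), both called by limma. Some markers of other kidney cells were also present: Pdgfrb, of mesangial cells, averaged 31.7 FPKM in TFEB siRNA cells and 31.9 FPKM in scrambled siRNA cells. Lrp2, of tubule cells, averaged 46.3 FPKM in TFEB siRNA cells and 52.5 FPKM in scrambled siRNA cells, and neither passed the test. The 4 mesangial markers summed to 32.1 to 34.8 FPKM in the TFEB siRNA libraries and 33.7 to 35.7 FPKM in the scrambled siRNA libraries. The 4 tubule markers, with Umod at 0, summed to 42.5 to 49.1 FPKM and 46.3 to 56.5 FPKM in the same groups. Only 2 of the 4 mesangial and 1 of the 4 tubule markers passed the filter, so each sum rests mostly on Pdgfrb or Lrp2. The 5 endothelial markers summed to at most 0.476 FPKM in the TFEB siRNA libraries and 0.575 FPKM in the scrambled siRNA libraries, with Emcn at 0. Of 4 macrophage markers, Ptprc and Adgre1 were near 0, Csf1r passed the test as lower, and the sum was 6.07 to 7.25 FPKM in the TFEB siRNA libraries and 9.14 to 11.1 FPKM in the scrambled siRNA libraries. The part of these differences in the results was not tested, and in bulk RNA fewer cells of a type and less RNA per cell cannot be told apart.

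The chaperones together took up a larger share of reads after TFEB siRNA. They held 0.729%, 0.695% and 0.738% of the reads in the TFEB siRNA libraries, against 0.649%, 0.635% and 0.625% in the scrambled siRNA libraries, and these ranges did not overlap. Of the 10 genes, 5 rose (Hspa5, Pdia4, Hyou1, Pdia3 and Pdia6), 1 fell (Dnajb9) and 4 did not pass the test (Calr, Dnajb11, Hsp90b1 and Canx), by limma over all tested genes at an adjusted p below 0.05. Of all tested genes 16.9% were called higher and 16.4% lower. The libraries of the groups did not overlap for 9 of the 10, with 8 higher and 1 lower, where 25.3% of all tested genes had every TFEB siRNA library higher and 23.5% had every one lower. The median log2 fold change of the 10 was 0.20, against 0.02 for all tested genes, whose middle 50% lay between -0.18 and 0.20. All of these differences were below 1.5-fold. The number that rose was between 3 and 5 when 1 library was left out in turn, with the 3 reached without scrambled siRNA replicate 3.

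**Figure D2:**
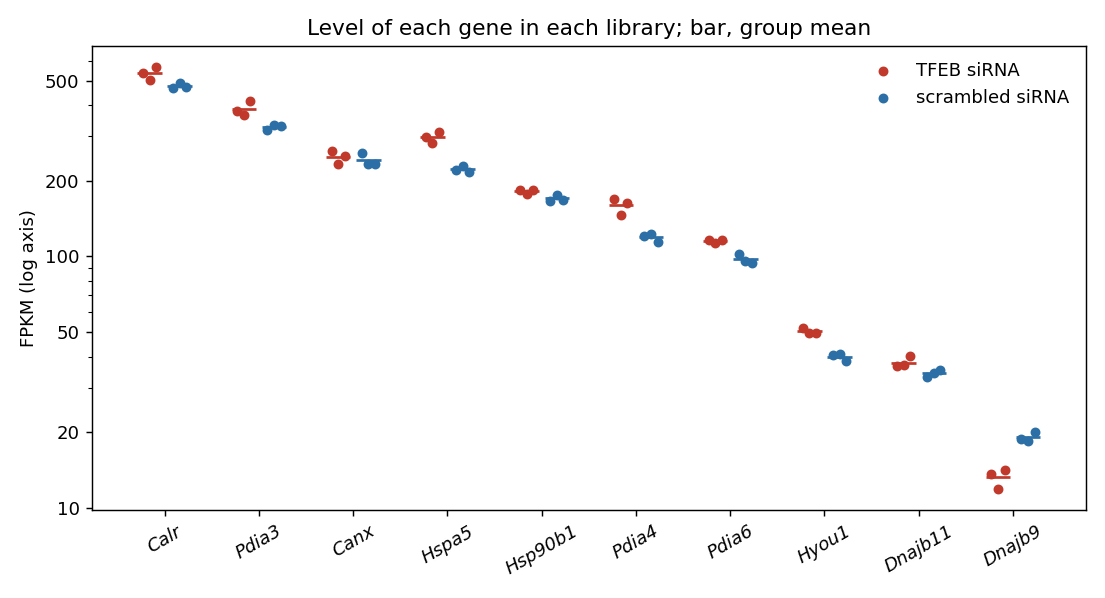
FPKM on a log axis for each of the 10 genes, with 3 TFEB siRNA libraries on the left of each pair, 3 scrambled siRNA libraries on the right, and a bar at each group mean. Points of the groups overlap for Canx alone, and Dnajb9 is the gene with the TFEB siRNA points below the others.

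**Figure D3:**
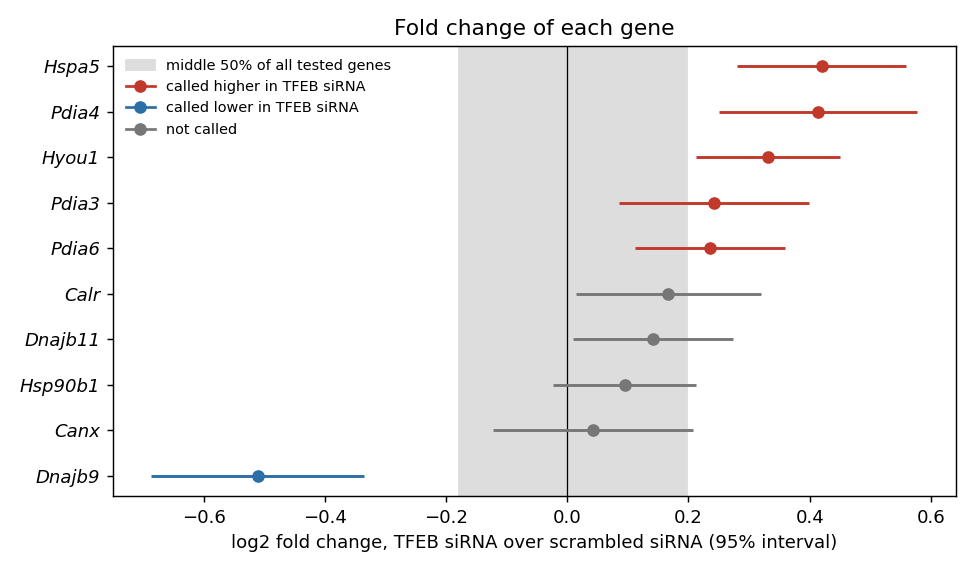
Log2 fold change, TFEB siRNA over scrambled siRNA, with its 95% interval (not adjusted for the number of genes), for each gene. The grey band holds the middle 50% of all tested genes, from -0.18 to 0.20; Hspa5, Pdia4 and Hyou1 lie to its right with their whole intervals, and Dnajb9 lies to its left.

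Hspa5 encodes BiP, the main Hsp70 chaperone of the ER (ENSMUSG00000026864, chromosome 2, 34771970 to 34777547 in the file's coordinates, build mm10). It had 298, 282 and 313 FPKM in the TFEB siRNA libraries, against 221, 228 and 217 FPKM in the scrambled siRNA libraries. Every TFEB siRNA library was above every scrambled one. The means were 298 ± 15.6 FPKM and 222 ± 5.54 FPKM (SD, n = 3 each), a ratio of 1.34, with a log2 fold change of 0.42 (SE 0.06, limma adjusted p = 0.00245). The exact permutation test, run over unpaired libraries, gave p = 0.1, the smallest that 3 against 3 libraries allow, here and for each of the other genes except Canx. Within numbered pairs such a test could not go below 0.25. None of the 12 alternative settings ended this call.

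Hyou1 encodes the large Hsp70 relative that exchanges the nucleotide of BiP (ENSMUSG00000032115, chromosome 9, 44379490 to 44392369). Its level was 52.1, 49.4 and 49.7 FPKM in the TFEB siRNA libraries, against 40.4, 41.0 and 38.4 FPKM in the scrambled siRNA libraries. It rose with BiP, 1.26-fold on average (log2 fold change 0.33, SE 0.05, limma adjusted p = 0.00331). The ratio of Hyou1 to Hspa5 was 0.170 ± 0.00936 in the TFEB siRNA group and 0.180 ± 0.00294 in the scrambled siRNA group (SD, n = 3 each).

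Dnajb9, also known as ERdj4, was the gene of the 10 that fell (ENSMUSG00000014905, chromosome 12, 44205559 to 44210326). It encodes a DnaJ cochaperone of BiP that takes part in ER-associated degradation and, with BiP, restrains the sensor IRE1. It had 13.7, 11.9 and 14.2 FPKM in the TFEB siRNA libraries, against 18.8, 18.5 and 19.98 FPKM in the scrambled siRNA libraries. Every TFEB siRNA library was lower, from 1938 reads in that group and 3034 in the scrambled siRNA group. The scrambled mean was 1.44-fold the TFEB siRNA mean (log2 fold change -0.51, SE 0.07, limma adjusted p = 0.00285), and none of the 12 alternatives ended the call. About 5.5% of its 50-base words recur in Gm6568, which leaves the placing of some of its reads uncertain.

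Dnajb11, or ERdj3, encodes the abundant soluble DnaJ cochaperone that hands unfolded proteins to BiP (ENSMUSG00000004460, chromosome 16, 22857845 to 22879634). It had 36.7, 36.9 and 40.0 FPKM in the TFEB siRNA libraries, against 33.1, 34.3 and 35.4 FPKM in the scrambled siRNA libraries. The groups did not overlap, but the difference did not pass the test (log2 fold change 0.14, 95% interval 0.01 to 0.27, limma adjusted p = 0.0926). With the replicate number as a block in the fit it did pass (adjusted p = 0.0413). The DnaJ cochaperones of BiP therefore gave values of opposite sign, with Dnajb9 called lower and every Dnajb11 value higher in TFEB siRNA cells.

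Hsp90b1 encodes GRP94, the Hsp90 of the ER, which folds a narrower set of clients such as integrins and Toll-like receptors (ENSMUSG00000020048, chromosome 10, 86690209 to 86705509). Its levels were 185, 178 and 183 FPKM in the TFEB siRNA libraries, against 167, 176 and 168 FPKM in the scrambled siRNA libraries. The lowest TFEB siRNA library lay just above the highest scrambled one, and the difference did not pass the test (log2 fold change 0.09, 95% interval -0.02 to 0.21, limma adjusted p = 0.188). The interval allows a ratio from 0.984 to 1.16. Other annotated genes overlap 15.7% of its exon bases, 1810014B01Rik on the opposite strand among them, and the use of strand in counting is not stated.

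Neither lectin of the glycoprotein cycle passed the test. Calr, which encodes the soluble lectin calreticulin, also a calcium store (ENSMUSG00000003814, chromosome 8, 84841850 to 84846934), was the most abundant of the 10. It had 536, 502 and 567 FPKM in the TFEB siRNA libraries, against 467, 487 and 473 FPKM in the scrambled siRNA libraries. These did not overlap, but the difference missed the threshold (log2 fold change 0.17, 95% interval 0.01 to 0.32, limma adjusted p = 0.0892). It passed when limma-voom was run on the derived reads (adjusted p = 0.0374).

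Canx encodes calnexin, the membrane-bound lectin (ENSMUSG00000020368, chromosome 11, 50293961 to 50325673). It had 262, 232 and 250 FPKM in the TFEB siRNA libraries, against 257, 233 and 232 FPKM in the scrambled siRNA libraries. Replicate 1 was the highest in both groups, and the groups overlapped (log2 fold change 0.04, 95% interval -0.12 to 0.21, limma adjusted p = 0.677, exact permutation p = 0.7). The interval allows a ratio from 0.919 to 1.15, so a change as large as that of Hspa5 (1.34) lies outside it.

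The 3 disulfide isomerases among these genes all rose, by unequal amounts. Pdia4, or ERp72, is an isomerase with 3 active domains (ENSMUSG00000025823, chromosome 6, 47796141 to 47813430). It had 170, 146 and 163 FPKM in the TFEB siRNA libraries, against 121, 123 and 115 FPKM in the scrambled siRNA libraries. The ratio of means was 1.34, as for Hspa5 (log2 fold change 0.41, SE 0.07, limma adjusted p = 0.00481).

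Pdia6, or P5, an isomerase that works with BiP (ENSMUSG00000020571, chromosome 12, 17266545 to 17284770), had 117, 113 and 116 FPKM in the TFEB siRNA libraries, against 103, 96.1 and 94.6 FPKM in the scrambled siRNA libraries. It rose 1.18-fold (log2 fold change 0.24, SE 0.05, limma adjusted p = 0.0137). Without scrambled siRNA replicate 3 the call was lost (adjusted p = 0.0585).

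Pdia3, or ERp57, the isomerase that partners calnexin and calreticulin (ENSMUSG00000027248, chromosome 2, 121413775 to 121438687), had 379, 365 and 416 FPKM in the TFEB siRNA libraries, against 317, 332 and 330 FPKM in the scrambled siRNA libraries. Its mean was 1.18-fold higher in TFEB siRNA cells (log2 fold change 0.24, SE 0.07, limma adjusted p = 0.0291). That call is the least secure of the 5. It was lost without the filter on low values (adjusted p = 0.131), without TFEB siRNA replicate 1 (0.0649) or 3 (0.0728), and without scrambled siRNA replicate 1 (0.0764), 2 (0.0658) or 3 (0.0797).

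Levels within a group kept nearly the same order. In TFEB siRNA cells it ran Calr, Pdia3, Hspa5, Canx, Hsp90b1, Pdia4, Pdia6, Hyou1, Dnajb11 and Dnajb9, from 535 ± 32.3 FPKM to 13.3 ± 1.17 FPKM. In scrambled siRNA cells Canx stood above Hspa5 and the other places were the same, from 476 ± 10.3 FPKM for Calr to 19.1 ± 0.811 FPKM for Dnajb9 (SD, n = 3 each). In both groups the ranges of neighbours in the order did not overlap. Calr ranked 46 and Dnajb9 3500 among the 12257 tested genes by mean FPKM.

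Within the TFEB siRNA group 1 library was low for most of the genes. TFEB siRNA replicate 2 was the lowest of its group for 9 of the 10 genes and the highest for 0. In the scrambled siRNA group replicate 1 was the lowest for 4, replicate 2 for 1 and replicate 3 for 5. The coefficient of variation was 1.76% to 8.84% in the TFEB siRNA group and 2.16% to 5.92% in the scrambled siRNA group, and it was larger in TFEB siRNA cells for 7 genes. Canx, for example, varied by 6.03% and 5.92% in these groups, more than the 1.03 ratio of its means.

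Ratios within a library are given as a description, since the pairs were chosen after the values were seen. Hspa5 stood at 1.14, 1.21 and 1.25 times Canx in the TFEB siRNA libraries, against 0.859, 0.979 and 0.934 times in the scrambled siRNA libraries. The FPKM of Hspa5 was above that of Canx in each TFEB siRNA library and below it in each scrambled one. Whether a ratio lies above 1 depends on the gene lengths used for FPKM, while its relative difference between groups does not. Hspa5 over Hsp90b1 averaged 1.64 ± 0.0632 in TFEB siRNA cells and 1.31 ± 0.0182 in scrambled siRNA cells (SD, n = 3 each). Pdia4 over Pdia6 averaged 1.38 ± 0.083 and 1.22 ± 0.0535 in the same groups, without overlap. Dnajb9 over Hspa5 was 0.0445 ± 0.00184 in TFEB siRNA cells and 0.0859 ± 0.00565 in scrambled siRNA cells. Calr over Canx overlapped between the groups, at 2.16 ± 0.112 and 1.98 ± 0.146 in the same order.

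**Figure D4:**
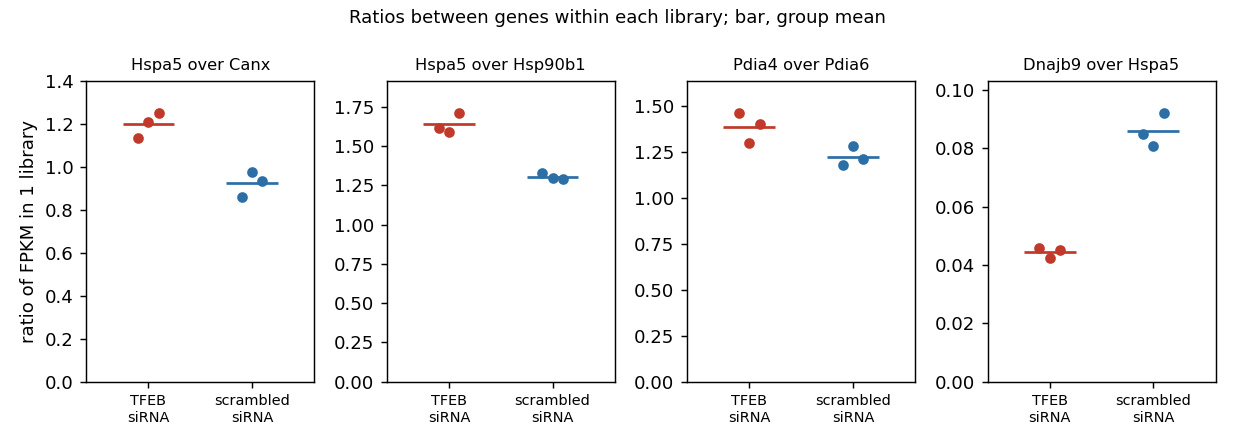
Ratio of the FPKM of 1 gene to that of another within each library, with TFEB siRNA libraries on the left, scrambled siRNA libraries on the right and a bar at each mean; each panel starts at 0. Hspa5 over Canx lies above 1 in all 3 TFEB siRNA libraries and below 1 in all 3 scrambled ones, and Dnajb9 over Hspa5 averages 0.0445 and 0.0859.

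Among the 9 genes with a promoter entry, those with and those without an exact ERSE match both included genes that rose. Hyou1, which rose, has no entry, and the part of the ERSE in these changes was not tested. Of the 5 genes with a match, Hspa5 and Pdia6 rose and Calr, Hsp90b1 and Canx did not pass, with a median log2 fold change of 0.17. Of the 4 without one, Pdia4 and Pdia3 rose, Dnajb9 fell and Dnajb11, which holds an ERSE-II, did not pass, with a median of 0.19. Across the genome 7 further genes with an ERSE match were tested, of which 1 rose (14.3%, against 16.9% of all tested genes) and 0 fell. The gene that rose was Zfp57, an imprinting regulator, with 7.87 ± 0.334 FPKM in TFEB siRNA cells and 5.96 ± 0.0615 FPKM in scrambled siRNA cells. Of 8 further tested genes with an ERSE-II match 0 rose and 2 fell. Creld2 and Syvn1 were among the 7 with an ERSE match. Creld2, an ER stress-induced isomerase-like protein, had 31.8 ± 0.142 FPKM in TFEB siRNA cells and 32.0 ± 1.35 FPKM in scrambled siRNA cells (limma adjusted p = 0.934). Syvn1, the ubiquitin ligase of ER-associated degradation, had 13.0 ± 0.726 and 12.5 ± 1.51 FPKM in the same groups. Of 207 tested genes with the TFEB core in their promoter 35 rose (16.9%) and 34 fell (16.4%), the same shares as among all tested genes.

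Of 20 tested enzymes of oxidative folding outside the 10, 7 rose, 1 fell and 12 did not pass, where 16.9% of all tested genes rose and 16.4% fell. Their median log2 fold change was 0.03, near the 0.02 of all tested genes, and the number that rose was 2 without scrambled siRNA replicate 3 and 3 without TFEB siRNA replicate 3. Prdx4, the ER peroxiredoxin that uses peroxide to make disulfides, had 15.1, 14.8 and 15.5 FPKM in the TFEB siRNA libraries, against 10.1, 10.1 and 9.76 FPKM in the scrambled siRNA libraries (log2 fold change 0.57, SE 0.05, limma adjusted p = 0.000461). Qsox2, a sulfhydryl oxidase, had 6.52 and 5.18 FPKM on average (log2 fold change 0.31). P4hb, the founding disulfide isomerase, had 316, 315 and 330 FPKM in the TFEB siRNA libraries, against 299, 326 and 324 FPKM in the scrambled siRNA libraries, which overlapped (log2 fold change 0.02, limma adjusted p = 0.834). Vkorc1, which recycles vitamin K, fell (log2 fold change -0.57), but 44.7% of its 50-base words recur in Gm21974, and leaving out 1 of 4 libraries or the filter ended the call. Of the 7 that rose, Prdx4 and Dnajc10 kept the call under all 12 alternatives; Qsox2 was no longer called when TFEB siRNA replicate 2 or 3 or scrambled siRNA replicate 3 was left out.

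Of 7 tested further genes listed as cofactors of BiP, 0 rose, 1 fell and 6 did not pass. That is near the shares of all tested genes given above for a list of this size. Dnajc10, a DnaJ protein counted above with the enzymes of oxidative folding, is not among the 7. It rose (log2 fold change 0.29, limma adjusted p = 0.00907), so the 0 depends on where it is listed. Dnajc1, a membrane-bound DnaJ protein, had 4.06, 3.94 and 3.79 FPKM in the TFEB siRNA libraries, against 5.36, 5.55 and 5.11 FPKM in the scrambled siRNA libraries (log2 fold change -0.40, SE 0.06, limma adjusted p = 0.00401). Sil1, the second nucleotide exchange factor of BiP, gave a log2 fold change of 0.02 and Dnajc3 one of -0.14, neither of which passed.

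Of 7 tested genes that trim sugars and recheck folding in the glycoprotein cycle 3 rose and 0 fell, where 16.9% of all tested genes rose and 16.4% fell. The number that rose was 2 or 3 when 1 library was left out. Ganab, 1 of these genes, changed by more than any of the 10. Ganab, the catalytic subunit of glucosidase II, which prepares glycoproteins for the lectins, had 165, 155 and 155 FPKM in the TFEB siRNA libraries, against 87.6, 90.1 and 79.6 FPKM in the scrambled siRNA libraries (log2 fold change 0.88, SE 0.06, limma adjusted p = 0.000311). Its regulatory partner Prkcsh had a log2 fold change of -0.02 and did not pass. Man1b1, a mannosidase that marks glycoproteins for removal, rose by 0.32 on the log2 scale.

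Of 18 tested genes of ER-associated degradation 2 were higher, 5 lower and 11 did not pass, again beside 16.9% and 16.4% of all tested genes. Without scrambled siRNA replicate 3 the number lower was 2, as Edem1, Ube2g2 and Selenos were no longer called. Os9, a lectin that brings glycoproteins to the degradation complex, had 61.5, 57.5 and 64.2 FPKM in the TFEB siRNA libraries, against 36.2, 37.1 and 35.0 FPKM in the scrambled siRNA libraries (log2 fold change 0.75). Sel1l, the scaffold of that complex, rose by 0.30. Ube2j1, its ubiquitin-conjugating enzyme, had a log2 fold change of -0.48, and Selenos, which recruits the extraction machinery, one of -0.38.

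At the entry to the ER, 4 of 13 translocon and signal peptidase genes rose and 3 fell, where 16.9% of all tested genes rose and 16.4% fell. When 1 library was left out, 3 rose and 2 to 4 fell. Ssr1, a translocon-associated subunit, and Sec11a, a catalytic subunit of signal peptidase, rose by 0.48 and 0.41 on the log2 scale. Spcs1 and Spcs3, accessory subunits of the same peptidase, had log2 fold changes of -0.73 and -0.26. Subunits of signal peptidase thus changed in opposite directions, and 9.83% of the 50-base words of Sec11a and 10.6% of those of Spcs1 recur in other genes.

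Of 8 prolyl isomerases and collagen chaperones 1 rose and 2 fell, where 16.9% of all tested genes rose and 16.4% fell. Fkbp10, a collagen prolyl isomerase, had a log2 fold change of 0.70, Ppic one of -0.88 and Fkbp9 one of -0.33. Among 7 tested calcium pumps and calcium-binding proteins 1 rose and 3 fell, beside the same shares of all tested genes. Sdf4 rose by 0.34, while Stim1, the ER calcium sensor, and Atp2a2, the calcium pump, had log2 fold changes of -0.47 and -0.36. Of the calcium-binding chaperones among the 10, Hspa5 rose and Calr, Canx and Hsp90b1 did not pass, as above.

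**Figure D5:**
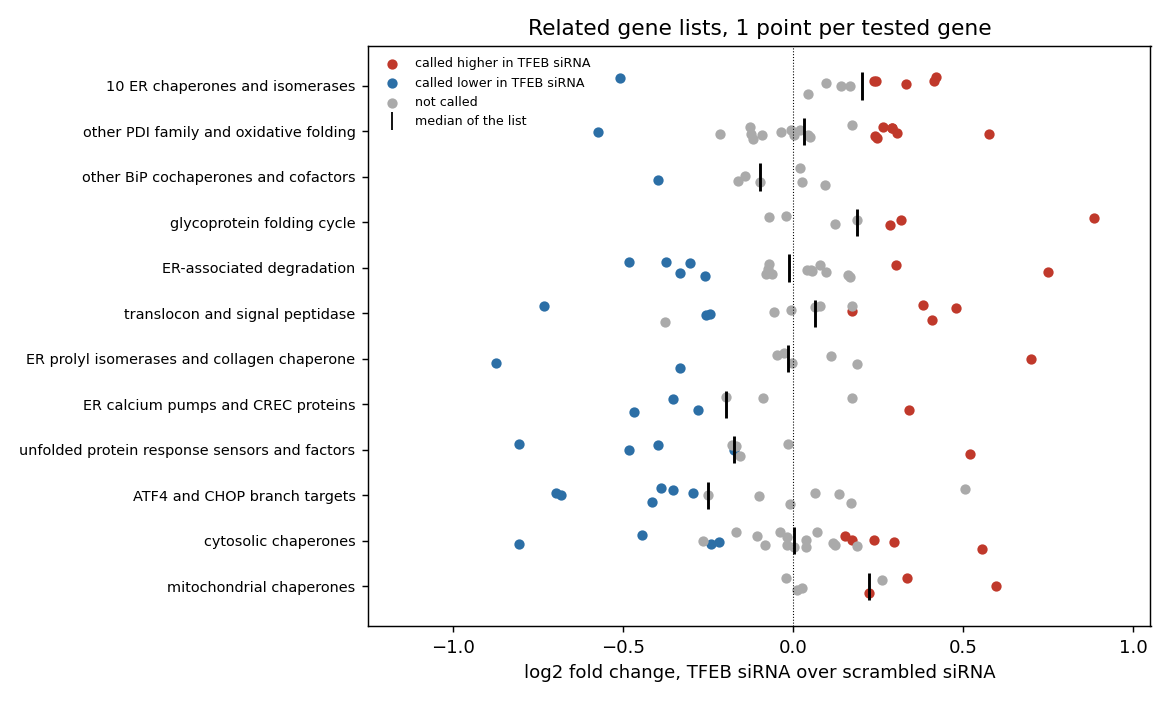
Log2 fold change, TFEB siRNA over scrambled siRNA, of each tested gene in the 10 chaperones and in related lists, coloured by whether limma called it, with a black line at the median of each list. The median of the 10 is 0.20 and that of the ATF4 and CHOP targets is -0.25. The glycoprotein cycle and the mitochondrial chaperones have 0 genes called lower. The BiP cofactors as listed and the ATF4 and CHOP targets have 0 called higher. Dnajc10, a DnaJ protein that was called higher, is drawn with the enzymes of oxidative folding. Of all tested genes 16.9% were called higher and 16.4% lower.

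Of 9 tested sensors and factors known to control these genes, 1 rose, 4 fell and 4 did not pass, where 16.9% of all tested genes rose and 16.4% fell. When 1 library was left out, 0 or 1 rose and 3 to 5 fell. With the replicate block, and also with TPM, 6 fell. Atf6, the membrane-bound factor known to activate ERSE-bearing chaperone genes once it is cleaved, had 10.8, 9.40 and 10.4 FPKM in the TFEB siRNA libraries, against 18.2, 17.9 and 18.4 FPKM in the scrambled siRNA libraries. It was lower in each TFEB siRNA library (log2 fold change -0.81, SE 0.06, limma adjusted p = 0.000359). Its relative Atf6b rose by 0.52 on the log2 scale, a call lost without the filter or without TFEB siRNA replicate 2 or 3. Mbtps1 and Mbtps2, the proteases that cleave ATF6, had log2 fold changes of -0.17 and -0.40, and the call of Mbtps1 was lost under 5 of 12 alternatives. Xbp1, the factor made active by IRE1, had 17.4, 18.6 and 20.05 FPKM in the TFEB siRNA libraries, against 20.01, 21.8 and 21.3 FPKM in the scrambled siRNA libraries (limma adjusted p = 0.0919). Atf4 had 144, 150 and 154 FPKM in the TFEB siRNA libraries, against 160, 171 and 177 FPKM in the scrambled siRNA libraries. The groups did not overlap, but the difference missed the threshold (log2 fold change -0.18, limma adjusted p = 0.0506). These are gene-level values and do not show splicing of Xbp1 or cleavage of ATF6.

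Ddit3, which encodes CHOP, a factor downstream of PERK and ATF4, fell. It had 53.9, 53.9 and 51.8 FPKM in the TFEB siRNA libraries, against 81.0, 75.2 and 68.0 FPKM in the scrambled siRNA libraries (log2 fold change -0.48, SE 0.07, limma adjusted p = 0.00287). Of 13 targets of this branch 0 rose, 6 fell and 7 did not pass, with a median log2 fold change of -0.25. Of all tested genes 16.9% rose and 16.4% fell. The number of these targets that fell rests on single libraries: it was 1 without TFEB siRNA replicate 2, and 2 without TFEB siRNA replicate 1, scrambled siRNA replicate 2 or 3, or the filter. With the replicate block 2 were called higher and 7 lower. Atf3, a stress-induced factor, had a log2 fold change of -0.70 and Chac1, which degrades glutathione, one of -0.68. Both calls were lost without the filter and without any of 4 libraries in turn (TFEB siRNA replicates 1 and 2, scrambled siRNA replicates 2 and 3).

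Matches to short 3′ UTR words were looked up because an siRNA can lower transcripts that pair with its seed. The words had been chosen on these same fold changes. The 3′ UTR of Dnajb9 holds TACATAA and that of Pdia3 holds CTACATA, both chosen as frequent in genes that fell, and the other 8 genes hold none of the 8 words. Of 10474 tested genes searched, 33.5% hold a word of the falling set. Dnajb9 fell and Pdia3 rose, and the part of these words in either result was not tested.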

How the data were processed

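RNA of immortalized mouse podocytes was sequenced in 6 libraries, 3 after TFEB siRNA and 3 after scrambled siRNA, with group and replicate number from the sample titles. The authors deposited FPKM values with gene positions and lengths, per the file headers. The submitters' processing notes name the build mm10; the aligner, the counter and its use of strand are not stated. Each value times its gene length was a whole number of equal steps in its library for 100% of values above 0 (tolerance 1e-06), so reads and depth (18062898 to 20610888) were derived; at this depth each of the 10 genes had 616 to 31530 reads per library. The steps did not follow the derived reads alone. Scrambled siRNA replicate 2 had more reads than replicate 1 (20604794 against 20143910) but also a larger step (0.0483 against 0.0480). The FPKM values therefore hold a further factor per library that is not stated. The table had 0 unused sample columns.

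Groups were compared with limma 3.58.1 (R 4.3.3) on log2(FPKM + 0.5) over the 12257 genes with a mean of at least 1 FPKM, with eBayes and a mean-variance trend, two-sided, Benjamini-Hochberg adjusted over all of them and called below 0.05. That scale understates changes of low genes. The steps were tested on simulated data. The exact permutation test of each gene was two-sided. The 10 genes and all lists were chosen with earlier results of these data known. Named genes are the 10, Tfeb and, per list, the 2 called genes with the largest change in each direction. The markers and the ratios were chosen after values were seen. So were P4hb, Prkcsh, Sil1, Dnajc3, Dnajc10, Edem1, Ube2g2, Hspa9, Xbp1, Atf4, Mbtps1, Mbtps2, Creld2, Syvn1 and Zfp57. Genes most alike across libraries were not listed, because the libraries fall into 2 clusters. Residuals of same-numbered libraries correlated at 0.382, 0.129 and 0.166, all above 0.1. TFEB siRNA replicate 2 with scrambled siRNA replicate 3 gave 0.106, and TFEB siRNA replicate 3 with scrambled siRNA replicate 2 gave 0.0996. Only replicate 1 therefore stood apart, and these values do not settle whether the numbers pair the libraries. The main fit was unpaired, and the replicate block was run as an alternative. Alternatives were other pseudocounts (0.1 and 1), no filter, TPM, the replicate block, limma-voom and each library left out. No genome sequence or protein table was used here. Sequence shared between genes was counted in 50-base words of GENCODE M21 transcripts. Some podocyte markers are not reported here.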

Additional observations from a re-analysis of the deposited data

How the results depend on the processing

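Over 10 genes and 12 alternatives (120 results), 111 kept their call and direction, 7 lost a call, 2 gained one and 0 reversed. Hspa5, Pdia4, Hyou1 and Dnajb9 kept their calls and Hsp90b1 and Canx stayed uncalled under all 12. The number of genes called higher was 5, and 3 to 5 when 1 library was left out; the 3, without scrambled siRNA replicate 3, lacks Pdia3 and Pdia6. With the replicate block it was 6, as Dnajb11 passed, and with limma-voom on derived reads, added after seeing the data, it was also 6, as Calr passed; without the filter it was 4. The median log2 fold change of the 10 was 0.16 to 0.23 over all alternatives. Over all genes, 1412 to 2542 were higher and 1371 to 2386 lower. Rescaling to TPM moved the median of all genes from 0.02 to -0.01. The planned edgeR and DESeq2 alternatives were not run, because the deposited values are FPKM. In the related lists the replicate block gave 2 instead of 1 higher among the prolyl isomerases and among the calcium genes, and 2 instead of 1 lower among the BiP cofactors. It also gave 6 instead of 4 lower among the sensors and factors, and 4 instead of 3 lower among the calcium genes. With it the cytosolic chaperones had 6 higher and 6 lower, and the translocon and signal peptidase genes 5 and 4. Genes of ER-associated degradation had 3 instead of 2 higher. Counting error weighs most on Dnajb9, which had the fewest reads of the 10.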

Other observations

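Chaperones outside the ER also differed. Among 7 mitochondrial chaperones 3 rose and 0 fell, where 16.9% of all tested genes rose and 16.4% fell. The number that rose was 2 or 3 when 1 library was left out. Hspd1, the mitochondrial chaperonin HSP60, had 168, 168 and 156 FPKM in the TFEB siRNA libraries, against 106, 114 and 105 FPKM in the scrambled siRNA libraries (limma log2 fold change 0.60, SE 0.06, adjusted p = 0.000749). Hspe1, its cofactor, rose by 0.33. Hspa9, the mitochondrial Hsp70, had a log2 fold change of -0.02 and did not pass. Pseudogenes and other genes share 42.1% of the 50-base words of Hspd1 and 22.8% of those of Hspe1.

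Of 23 cytosolic chaperones tested 5 rose, 4 fell and 14 did not pass, where 16.9% of all tested genes rose and 16.4% fell. Their median log2 fold change was 0.00, and the number that rose was 1 without scrambled siRNA replicate 3. Hsp90ab1, the constitutive cytosolic Hsp90, had 733, 715 and 735 FPKM in the TFEB siRNA libraries, against 472, 511 and 503 FPKM in the scrambled siRNA libraries (limma log2 fold change 0.55, SE 0.06, adjusted p = 0.000965), whereas its ER relative Hsp90b1 did not pass. Hspa8, the constitutive Hsp70, had a log2 fold change of 0.29, lost its call without that library (adjusted p = 0.0564) and shares 39.4% of its 50-base words with other genes. Hspa1b, the heat-inducible Hsp70, had 2.95 ± 0.654 FPKM in TFEB siRNA cells and 5.51 ± 0.931 FPKM in scrambled siRNA cells (limma log2 fold change -0.81, adjusted p = 0.0114), with 62.3% of its words shared, its near-identical copy Hspa1a among the genes sharing them. Hspa4l, an Hsp110-type relative, had 6.02 ± 0.743 FPKM in TFEB siRNA cells and 8.34 ± 0.443 FPKM in scrambled siRNA cells (limma log2 fold change -0.44, adjusted p = 0.0113).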
